A study of Homo sapiens with 2 samples.

Results

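The genes described here are PUM2, which encodes a Pumilio repressor of messenger RNA, and 7 genes of the CCR4-NOT deadenylase complex (CNOT1, CNOT2, CNOT3, CNOT6, CNOT6L, CNOT7 and CNOT8). They were found by gene name in a transcript-level RNA-seq table and account for 98 of its 95139 transcript rows and 8 of its 20263 genes. The genes were chosen by measured values, namely the very low FPKM of PUM2 in one condition, so the values of that contrast are given as a description and no test is applied to them. One condition was a knockdown of HNRNPA1, which encodes the RNA-binding splicing regulator hnRNP A1, for 48 h by small interfering RNA (siHNRNPA1). It was set against 48 h of a control siRNA. Both were done in H9 cells, a human embryonic stem cell line in long use. Each condition had 1 library, so no difference has a replicate check. Both library titles carry the number 1, and the labels do not say whether it marks a culture or an siRNA sequence.

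Pumilio proteins bind short UGUA-containing sites, mostly in the 3′ untranslated region (UTR) of a messenger RNA, and recruit the CCR4-NOT complex. The complex shortens the poly(A) tail, after which the messenger RNA is translated poorly, decapped and degraded. CNOT1 is the scaffold, CNOT2 and CNOT3 form the module through which many repressors dock, and the catalytic subunits come in paralog pairs. CNOT6 and CNOT6L are the CCR4-type nucleases, and CNOT7 and CNOT8 are the CAF1-type nucleases that bridge them to the scaffold. In embryonic stem cells CNOT1, CNOT2 and CNOT3 are known for their part in maintaining stem cell identity.

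Depth was similar, with 28147828 estimated counts with siHNRNPA1 and 26680342 with the control siRNA. HNRNPA1 itself had 179.9 FPKM with siHNRNPA1 and 663 FPKM with the control siRNA, which is 27.1% of the control level. All 8 pluripotent cell markers examined were expressed, at 18.02 to 1355 FPKM with siHNRNPA1 and 22.6 to 864 FPKM with the control siRNA. The levels were not equal, as POU5F1 was higher (1355 FPKM with siHNRNPA1 and 864 with the control siRNA), while SOX2 (58.3 FPKM with siHNRNPA1 and 126 with the control siRNA) and PODXL (102 FPKM with siHNRNPA1 and 312 with the control siRNA) were lower. Of 7 fibroblast markers, COL3A1, LUM and DCN were at 0 in both libraries and POSTN was under 1 FPKM. COL1A1 had 25.002 FPKM with siHNRNPA1 and 14.5 with the control siRNA, and COL1A2 had 8.38 FPKM with siHNRNPA1 and 13.3 with the control siRNA. The fibroblast list summed to 215 FPKM with siHNRNPA1 and 261 FPKM with the control siRNA. Most of it was THY1, with 181 FPKM with siHNRNPA1 and 233 with the control siRNA. The sum is thus mostly the level of 1 gene and is no measure of fibroblast content. The part of fibroblasts in the results was not tested. Levels are FPKM (a level scaled to transcript length and library depth), summed over the transcripts of a gene. Their intervals are exact 95% Poisson limits of the gene's summed count, scaled to its FPKM. They cover counting error only, and not all of it, since short transcripts can hold much FPKM on few counts. Folds are log2((siHNRNPA1 + 1)/(control + 1)) of FPKM, which understates the fold of weakly expressed genes. In bulk RNA, fewer cells expressing a gene and less RNA per cell cannot be told apart.

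At the gene level, 7 of the 8 genes were lower with siHNRNPA1 and CNOT3 alone was slightly higher. PUM2, CNOT8, CNOT2, CNOT6L and CNOT6 were at least 2-fold lower, while CNOT1 and CNOT7 were lower by less than 2-fold. None of the 8 was 2-fold higher. Among all 11921 genes with a mean of at least 1 FPKM, 6533 were lower and 5388 higher by any amount. Of the same genes, 21.9% passed 2-fold downward and 12.4% upward. All 8 genes passed that minimum. Their median log2 fold was -1.43, against -0.13 for all genes kept. The genes were chosen with this contrast in view, so the count is a description.

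**Figure D1:**
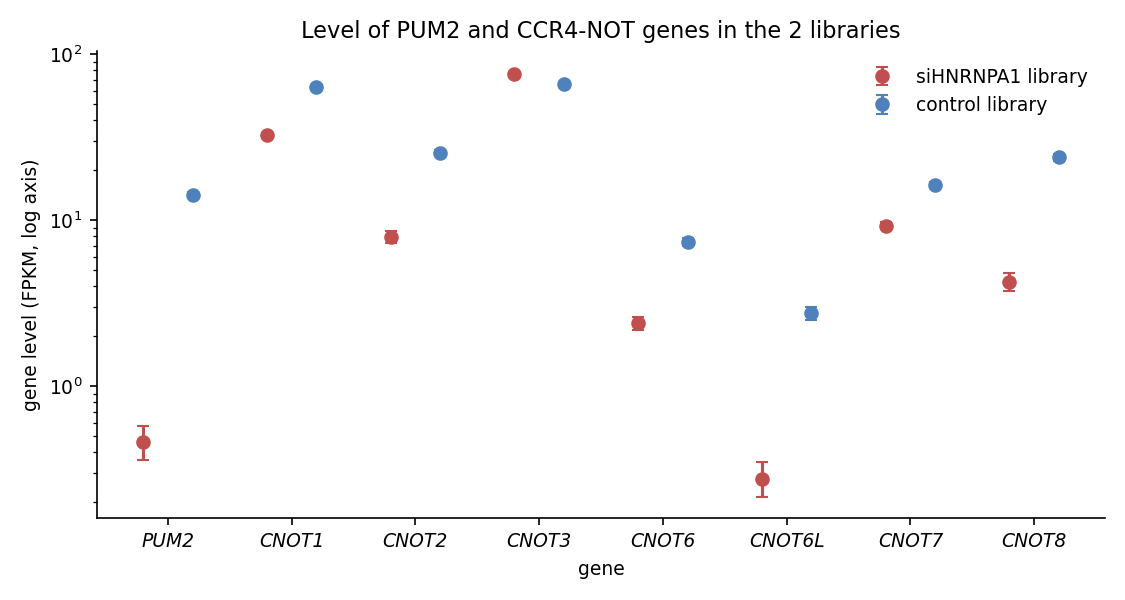
Level of each gene (FPKM, log axis) with siHNRNPA1 (red) and the control library (blue), with 1 library per condition and bars for the 95% counting interval. PUM2 and CNOT6L sit below 1 FPKM with siHNRNPA1, and CNOT3 is the only gene with the red point above the blue one.

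The order of the genes by level differed between the libraries, as PUM2 ranked below CNOT6, and CNOT7 above CNOT2 and CNOT8, with siHNRNPA1 but not with the control siRNA. In the siHNRNPA1 library the order was CNOT3, CNOT1, CNOT7, CNOT2, CNOT8, CNOT6, PUM2 and CNOT6L. No neighbours in it had overlapping intervals, but PUM2 and CNOT6L rest there on 73 and 72 counts. Of the 0.462 FPKM of PUM2, 0.101 comes from 2 counts of the short PUM2-211. The intervals leave this out, so they do not settle the order of PUM2 and CNOT6L. In the control library the order was CNOT3, CNOT1, CNOT2, CNOT8, CNOT7, PUM2, CNOT6 and CNOT6L. There, CNOT3 and CNOT1 had overlapping intervals (64.4 to 68.0 and 62.6 to 64.8 FPKM), as did CNOT2 and CNOT8 (24.3 to 26.5 and 22.9 to 25.2 FPKM).

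PUM2 (ENSG00000055917, GRCh38 chromosome 2, 20248691 to 20352234, minus strand) was the lowest of the 8 relative to its control level. It had 0.462 FPKM with siHNRNPA1 (0.362 to 0.580), against 14.3 FPKM with the control siRNA (13.8 to 14.9). This is 3.22% of the control level (log2 fold -3.39), and only 7 of 11921 genes had a more negative fold. The value rests on 1 library. The table has further columns, headed A2 and C3 beside the A1 and C2 analysed here, that the labels tie to no sample. They may be other libraries of these conditions and were not analysed here, so the low PUM2 level should not be taken to hold in another siHNRNPA1 library. The estimated counts were 73 with siHNRNPA1 and 2415 with the control siRNA, a log2 ratio of -5.13 (-5.48 to -4.79) per total count. No annotated gene overlaps PUM2 on either strand.

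The composition of PUM2 by transcript also differed. PUM2-202, the leading form with the control siRNA, had 0 counts with siHNRNPA1 and 1499 with the control siRNA. PUM2-201 had 0 counts with siHNRNPA1 and 626 with the control siRNA. Both start at an internal position 23467 and 23464 bases downstream of the start of PUM2-203, and together they made up 78.6% of PUM2 FPKM with the control siRNA. A count of 0 allows up to 3 counts, or 0.107 CPM, with siHNRNPA1, against 79.6 CPM measured with the control siRNA, by counting error only. PUM2-204, which starts 148 bases downstream of PUM2-203, had 8 counts with siHNRNPA1 and 248 with the control siRNA. PUM2-203 was the exception, with 63 counts with siHNRNPA1 and 26 with the control siRNA. It held 64.7% of the gene's FPKM with siHNRNPA1 and 0.921% with the control siRNA. By counts its share was 86.3% (exact binomial interval 76.2% to 93.2%) with siHNRNPA1 and 1.08% (0.704% to 1.57%) with the control siRNA. A transcript annotated as a target of nonsense-mediated decay, PUM2-211, had 2 counts with siHNRNPA1 and 10 with the control siRNA.

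**Figure D2:**
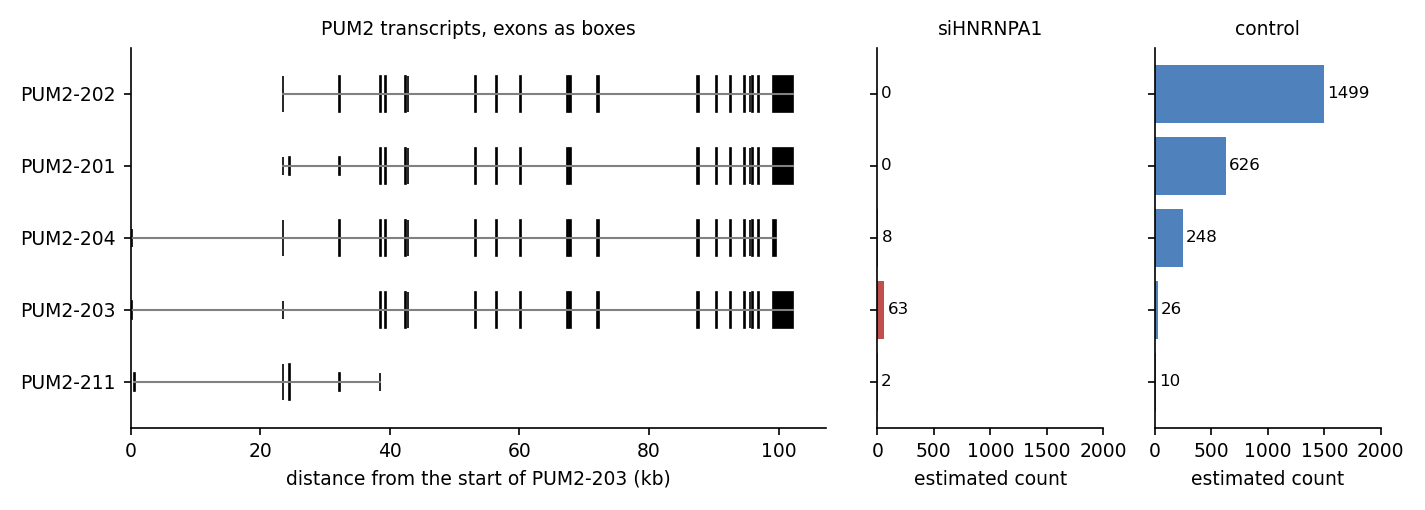
Left, exons of 5 PUM2 transcripts as boxes (tall where coding) by distance in kb from the start of PUM2-203. Right, estimated counts of each transcript with siHNRNPA1 (red) and the control library (blue). The counts of 1499 and 626 for PUM2-202 and PUM2-201 with the control siRNA face 0 with siHNRNPA1, and PUM2-203 has 63 with siHNRNPA1 and 26 with the control siRNA.

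PUM2-202 and PUM2-204 include an exon of 109 bases (chromosome 2, 20318537 to 20318645) that PUM2-203 skips. The coding sequence is 3192 bases in both of these and 3024 bases in PUM2-203, and other differences contribute to that gap. The junction is shown because it tells these forms apart, with the first bases of the exon in capitals and 15 bases on each side. The sequences are those of GENCODE release 29.
PUM2-202: cggggaatgggagagCTTTTGCCTACCAAA
PUM2-203: cggggaatgggagagaccattcaatgtccc
Few positions separate the forms. Of the 50-base stretches of PUM2-203, 2.39% are in no other PUM2 transcript of the table, and for PUM2-202 and PUM2-201 1 and 3 stretches are. The division of counts between PUM2 transcripts therefore rests on few positions, while the gene's summed count does not depend on it.

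The genes most like PUM2, by distance of log2(FPKM + 1) over the 2 libraries, were MAN2A1, SLC4A7, LBR, USP8 and GOLGA6L9, at distances of 0.03 to 0.27. MAN2A1, a Golgi mannosidase and the nearest, had 0.464 FPKM with siHNRNPA1 and 14.6 FPKM with the control siRNA. With 2 libraries this likeness says only that their levels in each were close to those of PUM2.

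CNOT1, the scaffold (ENSG00000125107, chromosome 16, 58519951 to 58629886, minus strand), had 32.9 FPKM with siHNRNPA1 (32.0 to 33.8), against 63.7 FPKM with the control siRNA (62.6 to 64.8). Its log2 fold of -0.93 was within 2-fold, and its estimated counts of 4992 with siHNRNPA1 and 13186 with the control siRNA gave a log2 ratio of -1.48 (-1.53 to -1.43). The lower level was mostly that of 1 transcript. CNOT1-211 had 4.23 FPKM with siHNRNPA1 and 42.5 FPKM with the control siRNA, from 1097 counts with siHNRNPA1 and 10297 with the control siRNA. It is annotated as a target of nonsense-mediated decay and held 12.8% of CNOT1 FPKM with siHNRNPA1 and 66.7% with the control siRNA. By counts the share was 21.98% with siHNRNPA1 and 78.1% with the control siRNA.

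The full-length coding form CNOT1-201 had 11.1 FPKM with siHNRNPA1 and 8.70 FPKM with the control siRNA, from 3111 counts with siHNRNPA1 and 2280 with the control siRNA. CNOT1-214, a fragment of 1317 bases annotated as incomplete, had 14.6 FPKM with siHNRNPA1 and 5.55 FPKM with the control siRNA, from 636 counts with siHNRNPA1 and 227 with the control siRNA. Without CNOT1-211, the gene summed to 28.7 FPKM with siHNRNPA1 and 21.2 FPKM with the control siRNA, a log2 fold of 0.42. Without CNOT1-211 and CNOT1-214 the sum was 14.1 FPKM with siHNRNPA1 and 15.6 FPKM with the control siRNA, a log2 fold of -0.14. The sign of the fold thus turned with the transcripts counted. Of the other CNOT1 transcripts that reached 1 FPKM in either library, CNOT1-219 had 0 FPKM with siHNRNPA1 and 1.85 with the control siRNA. CNOT1-210 had 0.658 FPKM with siHNRNPA1 and 1.57 with the control siRNA, and CNOT1-206 had 1.46 with siHNRNPA1 and 0.824 with the control siRNA.

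CNOT1-211 differs from CNOT1-201 inside the coding region by a cassette exon of 183 bases (chromosome 16, 58527923 to 58528105), which brings a stop codon 15 bases into the exon. It leaves a coding sequence of 6450 bases, against 7128 bases in CNOT1-201, with 5 exons downstream of it. CNOT1-211 also uses a nearby splice site at another exon and has shorter ends. The junctions are shown because this exon is among the few stretches that tell the forms apart, with the stop codon in capitals.
CNOT1-211: actcctaatctaaagagtcttactctgTGA
CNOT1-201: actcctaatctaaaggtggacatgttgagt
Of the 50-base stretches of CNOT1-211, 2.96% (230) are in no other CNOT1 transcript of the table, against 8.85% for CNOT1-201 and 5.36% for CNOT1-214. The letters TAGG, the core that hnRNP A1 is known to favour in RNA, do not occur in the sense strand of the cassette exon. They occur in 19.7% of 1517 annotated exons of the same length. Introns were not searched. Small nucleolar RNA genes lie within CNOT1 on its strand and are not rows of the table. Without a stated strand, reads cannot be told apart where genes overlap on opposite strands, which is so for CNOT1 and SETD6, CNOT3 and LENG1, CNOT7 and VPS37A, and CNOT8 and FAXDC2.

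CNOT2 (ENSG00000111596, chromosome 12), a docking subunit, had 7.94 FPKM with siHNRNPA1 (7.26 to 8.66), against 25.4 FPKM with the control siRNA (24.3 to 26.5), a log2 fold of -1.56. CNOT2-201, the full-length form, had 2.28 FPKM with siHNRNPA1 and 14.6 FPKM with the control siRNA. Its share of the gene was 28.8% with siHNRNPA1 and 57.6% with the control siRNA. CNOT2-220, incomplete in the annotation, had 0 FPKM with siHNRNPA1 and 5.02 with the control siRNA. The remaining FPKM of the siHNRNPA1 library was held mostly by short forms, of which CNOT2-233 had 1.25 FPKM there and 0.512 FPKM with the control siRNA. None of the 50-base stretches of CNOT2-201 is particular to it.

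CNOT3, the partner of CNOT2 (ENSG00000088038, chromosome 19), was the best expressed of the 8 in both libraries. It had 76.4 FPKM with siHNRNPA1 (74.5 to 78.4) and 66.2 FPKM with the control siRNA (64.4 to 68.0), a log2 fold of 0.20. No CNOT3 transcript differed in share by 20 percentage points. CNOT3-201 made up 48.4% of the gene with siHNRNPA1 and 49.1% with the control siRNA. CNOT3-205 made up 31.4% with siHNRNPA1 and 22.9% with the control siRNA. For CNOT3-202, which has another 5′ UTR, the share was 11.0% with siHNRNPA1 and 20.5% with the control siRNA. CNOT3-203 and CNOT3-206 stayed below 7% of the gene in both libraries.

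The CCR4-type nucleases were the least expressed of the complex and both were lower. CNOT6 (ENSG00000113300, chromosome 5) had 2.40 FPKM with siHNRNPA1 (2.19 to 2.62), against 7.41 FPKM with the control siRNA (7.03 to 7.82), a log2 fold of -1.31. Its main form CNOT6-201 had 390 counts with siHNRNPA1 and 1359 with the control siRNA. The minor forms CNOT6-202 and CNOT6-207, with the same coding sequence but other 5′ exons, were higher. CNOT6-202 had 48 counts with siHNRNPA1 and 4 with the control siRNA, and CNOT6-207 had 58 with siHNRNPA1 and 0 with the control siRNA. CNOT6L (ENSG00000138767, chromosome 4) had 0.277 FPKM with siHNRNPA1 (0.217 to 0.349), against 2.76 FPKM with the control siRNA (2.53 to 3.003), which is 10.04% of the control level. The log2 fold with 1 FPKM added was -1.56. CNOT6L-201 held 71 of its 72 counts with siHNRNPA1 and 472 of 526 with the control siRNA. The share of CNOT6L in the summed FPKM of both nucleases was 10.4% with siHNRNPA1 and 27.1% with the control siRNA.

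The CAF1-type nucleases differed from each other. CNOT8 (ENSG00000155508, chromosome 5, plus strand) had 4.26 FPKM with siHNRNPA1 (3.75 to 4.82), against 24.0 FPKM with the control siRNA (22.9 to 25.2). This is 17.7% of the control level (log2 fold -2.25). CNOT7 (ENSG00000198791, chromosome 8) had 9.28 FPKM with siHNRNPA1 (8.83 to 9.74), against 16.3 FPKM with the control siRNA (15.7 to 17.03), a log2 fold of -0.76. CNOT8 thus made up 31.5% of the summed FPKM of the pair with siHNRNPA1 and 59.5% with the control siRNA. By counts its part was 13.3% (11.8% to 14.9%) with siHNRNPA1 and 41.1% (39.6% to 42.7%) with the control siRNA. The paralogs share no 50-base stretch, as is also so for CNOT6 and CNOT6L.

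Within CNOT8, the coding forms CNOT8-201, CNOT8-202 and CNOT8-204 encode the same 876 bases and differ in the 5′ UTR. CNOT8-201 had 93 counts with siHNRNPA1 and 493 with the control siRNA, and CNOT8-202 had 89 with siHNRNPA1 and 467 with the control siRNA. CNOT8-204 had 2 counts with siHNRNPA1 and 432 with the control siRNA, and its share of the gene was 0.269% with siHNRNPA1 and 21.4% with the control siRNA. The incomplete CNOT8-213 had 32 counts with siHNRNPA1 and 134 with the control siRNA. CNOT8-204 has no 50-base stretch of its own, so its counts rest on how shared reads were divided. Within CNOT7, CNOT7-201 with the long 3′ end made up 70.8% of the gene with siHNRNPA1 and 56.0% with the control siRNA. CNOT7-211, which ends earlier, in an extended exon, made up 18.9% with siHNRNPA1 and 25.5% with the control siRNA, and CNOT7-205 made up 4.77% with siHNRNPA1 and 10.1% with the control siRNA. More than 40% of the 50-base stretches of CNOT7-201 and CNOT7-211 are particular to each.

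Across the 98 transcripts, 52 had counts with siHNRNPA1 and 70 with the control siRNA. Of all 95139 transcript rows, 51689 had counts with siHNRNPA1 and 56438 with the control siRNA. A count of 0 with siHNRNPA1 alone was listed for 24 transcripts of the 8 genes and with the control siRNA alone for 6, while 22 were at 0 in both. For these counts no value over all rows is given, so they are not read as particular to the 8 genes. Of the 98, 50 are annotated as incomplete and 24 have no 50-base stretch of their own. Shares were compared for genes with at least 5 FPKM in both libraries, which held for CNOT1, CNOT2, CNOT3 and CNOT7 with 58 transcripts. A difference of at least 20 percentage points was seen in 4 of these, CNOT1-211, CNOT1-201, CNOT1-214 and CNOT2-201. Among all 39113 transcripts compared in this way the share was 10.7%. PUM2, CNOT6, CNOT6L and CNOT8 were under 5 FPKM with siHNRNPA1, so their shares are given as values only. Transcripts annotated for nonsense-mediated decay made up 4.12% of the summed FPKM of the 8 genes with siHNRNPA1 and 21.0% with the control siRNA, most of it CNOT1-211.

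**Figure D3:**
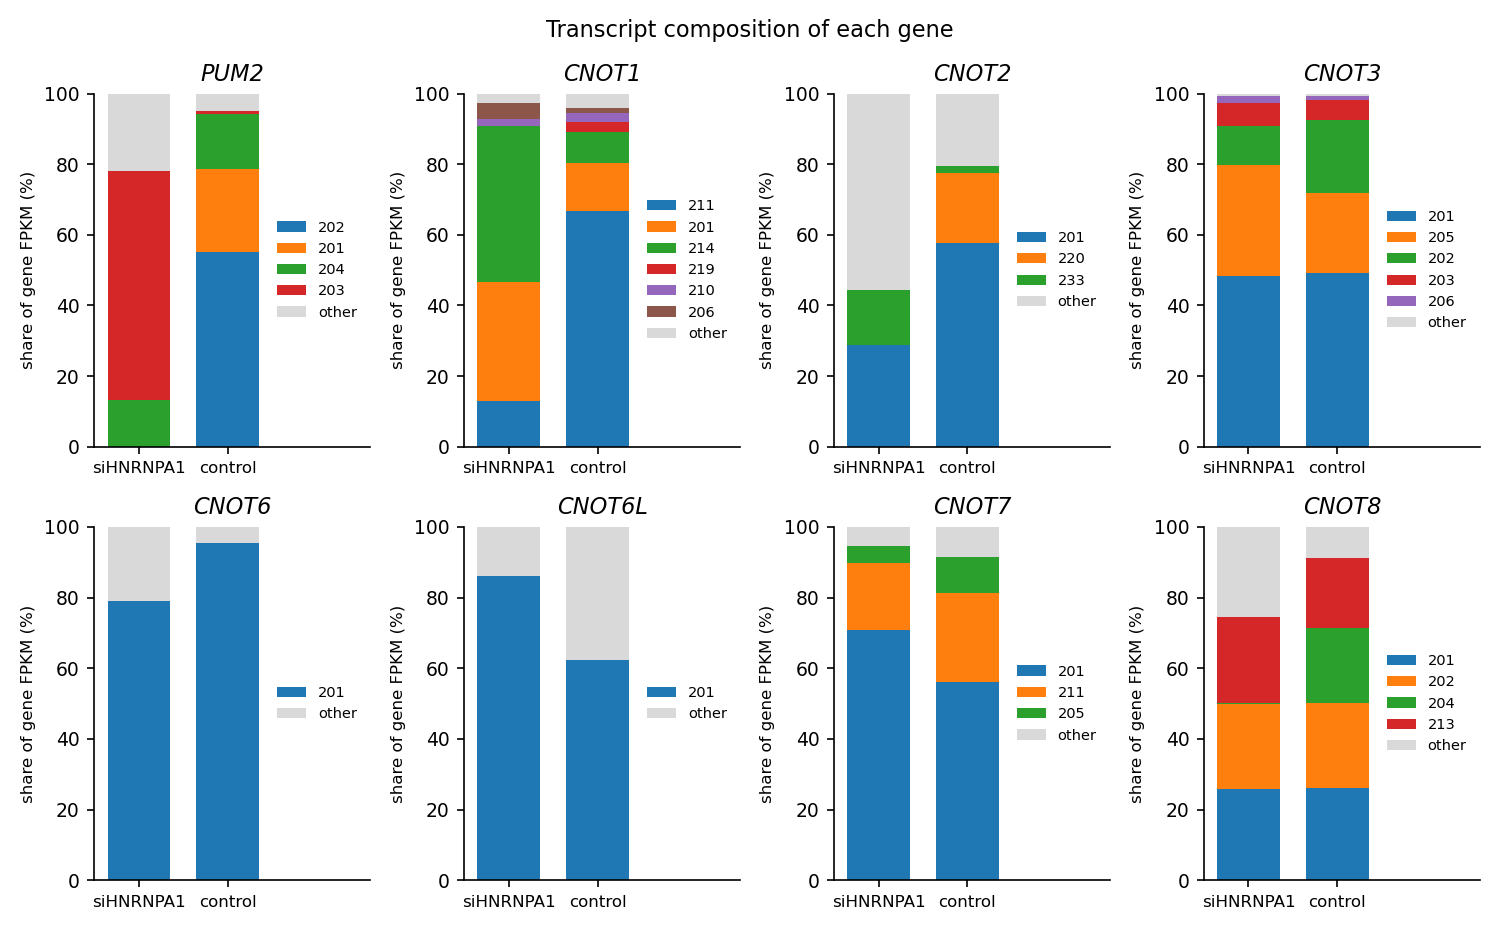
Share of each gene's FPKM (%) held by its transcripts with siHNRNPA1 (left bar) and the control library (right bar), with transcripts that reach 1 FPKM in either library and PUM2-203 in colour and all others in grey. PUM2 and CNOT1 change their leading transcript, and CNOT3 keeps its leading forms in the same order.

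The folds of the 8 genes lay within 2-fold of those of similar genes, except for PUM2 and CNOT8. The GC content of the leading transcript was 35.7% to 45.6% for the 7 lower genes and 61.7% for CNOT3. In the fifth of all genes with the lowest GC content, which holds PUM2, CNOT6, CNOT6L and CNOT7, 48.7% were at least 2-fold lower. In the adjoining group of 42.0% to 47.4% GC, which holds CNOT1, CNOT2 and CNOT8, 33.9% were lower, and in the group with the highest GC content, which holds CNOT3, 2.01%. Each gene was therefore also set against the median fold of its 100 nearest genes, nearness being taken over expression level, GC content and transcript length. That median was -1.38 for PUM2, -0.77 for CNOT8, -1.35 for CNOT6, -1.47 for CNOT7 and 0.65 for CNOT3. After its subtraction PUM2 stood at -2.01 and CNOT8 at -1.48, both still at least 2-fold lower. CNOT2 stood at -0.62, CNOT6L at -0.49, CNOT3 at -0.45 and CNOT1 at -0.01. CNOT6 stood at 0.04 and CNOT7 at 0.72. The signs of CNOT3, CNOT6 and CNOT7 thus turned. By this measure 8.35% of all genes passed 2-fold downward and 8.11% upward. The part of base composition and length in these folds was not tested further.

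**Figure D4:**
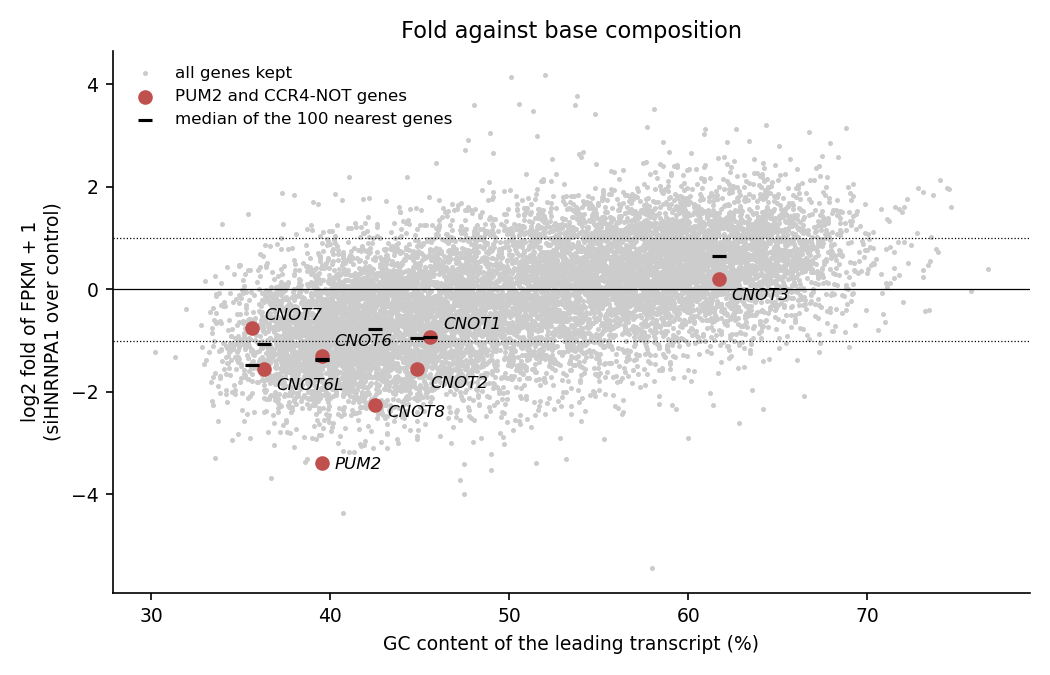
Log2 fold of FPKM + 1 (siHNRNPA1 over control) against the GC content of the leading transcript (%), for all genes kept (grey) and the 8 genes (red), with the median of the 100 nearest genes of each as a black dash and dotted lines at 2-fold. PUM2 and CNOT8 lie well below their dashes, while CNOT1 and CNOT6 lie on them.

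Among 65 other genes of Pumilio repression, deadenylation and decay, 56 passed the minimum of 1 FPKM. Of these, 18 passed 2-fold downward and 4 upward, which is 32.1% and 7.14%, against 21.9% and 12.4% of all genes. Their median fold was -0.63. After subtraction of the nearest genes, 12 passed 2-fold downward and 7 upward, with a median of -0.15. Of all genes, 8.35% passed 2-fold downward and 8.11% upward after that subtraction. The other CCR4-NOT subunits and the TOB and BTG adaptors, which bind the CAF1-type nucleases, had 3 of 9 lower and 1 higher (median -0.61). CNOT4, a ubiquitin ligase that associates with the complex, had 3.37 FPKM with siHNRNPA1 and 10.1 FPKM with the control siRNA (-1.35). CNOT9, which binds the scaffold and the GW182 proteins, had 8.64 FPKM with siHNRNPA1 and 22.1 with the control siRNA (-1.26), and the adaptor TOB1 1.55 FPKM with siHNRNPA1 and 5.28 with the control siRNA (-1.30). After subtraction of the nearest genes CNOT9 was still 2-fold lower (-1.09), but CNOT4 (-0.51) and TOB1 (-0.72) were not. TNKS1BP1, a CCR4-NOT-associated protein, was higher with 54.3 FPKM with siHNRNPA1 and 16.4 with the control siRNA (1.66). CNOT10 (log2 fold 0.31) and CNOT11 (-0.61), named after their values were seen to complete the complex, were within 2-fold. With the nearest genes subtracted, TNKS1BP1 (1.41) and CNOT10 (1.02) were at least 2-fold higher. By that measure this list had 1 gene lower and 2 higher.

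The proteins that bring CCR4-NOT to its targets had 6 of 15 genes past 2-fold downward and none upward (median -0.69). The 6 are 40% of the list, against 21.9% of all genes downward and 12.4% upward. The GW182 genes TNRC6A, TNRC6B and TNRC6C link Argonaute to the complex. TNRC6C had 0.672 FPKM with siHNRNPA1 and 8.93 FPKM with the control siRNA (-2.57), and TNRC6A 5.90 FPKM with siHNRNPA1 and 26.7 with the control siRNA (-2.004). AGO2, the slicing Argonaute, had 2.76 FPKM with siHNRNPA1 and 9.71 with the control siRNA (-1.51), and ZFP36, which binds AU-rich elements, 2.88 FPKM with siHNRNPA1 and 8.43 with the control siRNA (-1.28). The other members of these families were named after their values were seen. TNRC6B (-0.58), AGO1 (-0.85) and AGO3 (-0.14) were within 2-fold, and AGO4 was lower (-1.24). The log2 count ratio of AGO3 was -2.98. After subtraction of the nearest genes TNRC6C, TNRC6A and ZFP36 were still at least 2-fold lower, with ZFP36 at -1.67, and AGO2 stood at -0.53. TNRC6B then stood at 0.61, AGO1 at -0.74, AGO3 at 1.05 and AGO4 at -0.16. In the whole list 5 genes were then past 2-fold downward and 2 upward, against 8.35% and 8.11% of all genes.

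Among other deadenylases and poly(A)-binding proteins 3 of 8 (37.5%) were lower and none higher (median -0.85), against 21.9% and 12.4% of all genes. PAN3, the adaptor of the PAN2 nuclease, had 0.453 FPKM with siHNRNPA1 and 6.27 FPKM with the control siRNA (-2.32). PAN2 itself had 3.77 FPKM with siHNRNPA1 and 8.84 with the control siRNA (-1.04), the translation factor PAIP1 12.7 FPKM with siHNRNPA1 and 29.1 with the control siRNA (-1.14) and PABPC1 309 FPKM with siHNRNPA1 and 599 with the control siRNA (-0.95). After subtraction of the nearest genes PAN3 was still 2-fold lower (-1.32), but PAN2 (-0.60) and PAIP1 (-0.32) were not, and the log2 count ratio of PAIP1 was -0.65. Decapping and decay genes were on both sides, with 4 of 17 lower and 3 higher (median 0.10). The LSM ring genes LSM7 (344 FPKM with siHNRNPA1 and 111 with the control siRNA, 1.63) and LSM4 (233 FPKM with siHNRNPA1 and 104 with the control siRNA, 1.16) were higher with siHNRNPA1. Both were within 2-fold after subtraction of the nearest genes (LSM7 0.65, LSM4 0.39), and LSM4 also with protein-coding transcripts only (0.74). LSM3 of the same ring, named after its values were seen, had 22.3 FPKM with siHNRNPA1 and 10.4 with the control siRNA (1.03). After the subtraction LSM3 stood at 1.75. LSM6 of the same ring was lower (11.6 FPKM with siHNRNPA1 and 32.9 with the control siRNA, -1.43), and stood at -1.76 after the subtraction. Its counts of 801 with siHNRNPA1 and 1001 with the control siRNA differed less, however, and with protein-coding transcripts only its fold was 0.27. In the whole list 2 genes were past 2-fold downward and 3 upward after the subtraction, against 8.35% and 8.11% of all genes. DCP2, the decapping enzyme, had 2.84 FPKM with siHNRNPA1 and 8.56 with the control siRNA (-1.31), and 0.21 after subtraction of the nearest genes. PUM3, a nucleolar relative of the Pumilio repressors, stood at -0.32, and NANOS1, a Pumilio partner, at 0.59 with 2.03 FPKM with siHNRNPA1 and 1.01 with the control siRNA. The counts of NANOS1, 95 with siHNRNPA1 and 104 with the control siRNA, gave the other sign (log2 ratio -0.21 per total count).

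**Figure D5:**
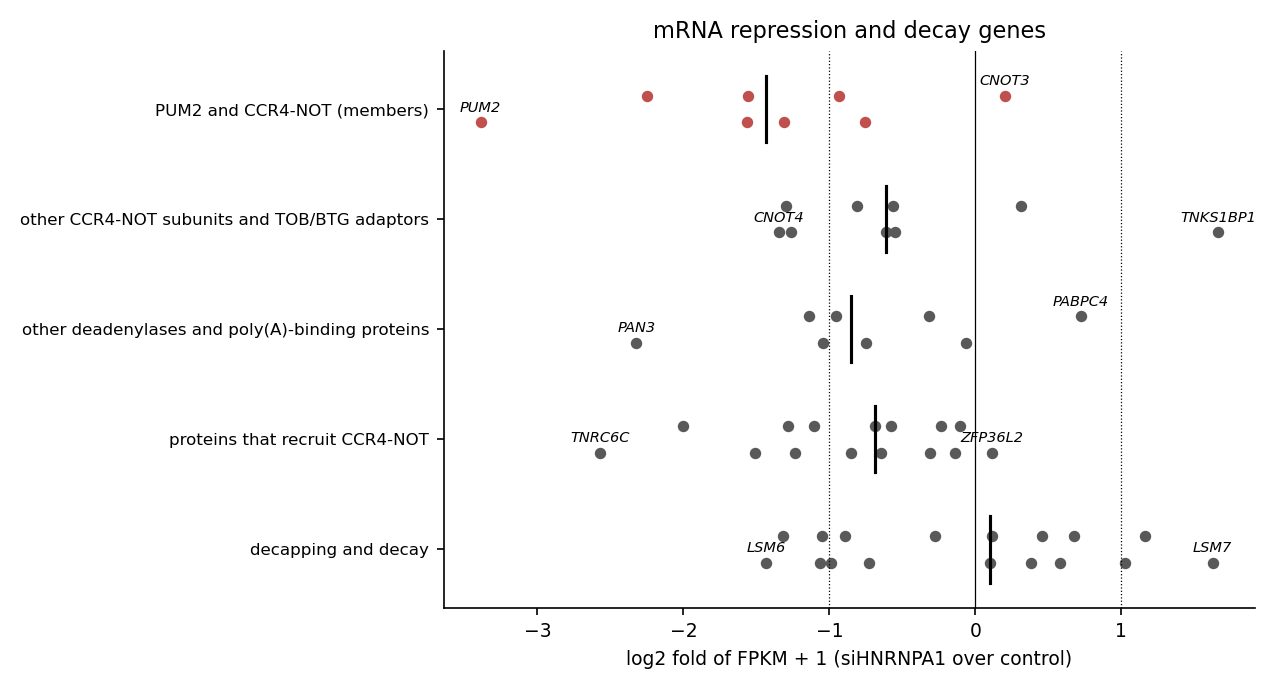
Log2 fold of FPKM + 1 (siHNRNPA1 over control) of each gene with a mean of at least 1 FPKM, for the 8 genes and 4 lists of CCR4-NOT, deadenylation, recruitment and decay genes, with a black bar at the median and dotted lines at 2-fold. The 8 genes (red) reach from -3.39 for PUM2 to 0.20 for CNOT3.

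Among genes studied as Pumilio targets in human cells, the cell cycle inhibitor CDKN1B had 4.52 FPKM with siHNRNPA1 and 16.1 FPKM with the control siRNA (-1.63). The kinase gene MAPK14 (6.30 FPKM with siHNRNPA1 and 8.27 with the control siRNA, -0.34) and the transcription factor E2F3 (4.42 FPKM with siHNRNPA1 and 5.15 with the control siRNA, -0.18) were within 2-fold. ATXN1 was under the minimum, with 0.0772 FPKM with siHNRNPA1 and 0.575 with the control siRNA.

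The Pumilio recognition element, searched as TGTANATA on the sense strand of the 3′ UTR, occurred in 6 of the 8 genes in the leading complete coding form. CNOT8-201 has 4 matches in 1354 bases and PUM2-202 has 2 in 2894 bases. CNOT1-201, CNOT2-201 and CNOT6L-201 have 1 each and CNOT7-201 has 2, while CNOT3-201 and CNOT6-201 have none. Of 11687 genes with such a UTR, 24.8% hold a match, and 54.7% of the fifth with the longest UTRs do. Sites are shown with the 8 matching bases in capitals, for PUM2 and for CNOT8, the gene with the most matches.
PUM2 site 1: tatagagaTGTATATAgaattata
PUM2 site 2: agaaatatTGTATATActtacata
CNOT8 site 1: tctgaattTGTAAATAagtcttcc
CNOT8 site 2: tagtaaaaTGTATATAactcttac
CNOT8 site 3: taatgggtTGTAGATActgagtct
CNOT8 site 4: aagatgctTGTAAATActatttat
A match in the letters is not evidence of binding, and no match says only that these letters are not in the annotated UTR.

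The folds of genes with and without the element were set side by side over all genes. The median fold was -0.75 for 2901 genes with a match and 0.07 for 8786 genes without. Genes with the same letters in reverse order, ATANATGT, differed about as much, with -0.75 with a match and 0.03 without. Genes with TGTANATA had longer UTRs (median 2209 bases, against 681 without) and lower GC content (44.2%, against 52.8%). After subtraction of the nearest genes the medians were -0.06 with TGTANATA and 0.02 without, and 0.03 with the reversed letters and -0.0034 without. Within the 5 groups of genes by UTR length, from shortest to longest, the subtracted difference was -0.04, -0.23, -0.19, -0.20 and -0.11 for TGTANATA. For the reversed letters it was -0.08, -0.09, -0.03, -0.10 and 0.09. The subtracted difference was thus more negative for TGTANATA in 4 of the 5 groups, against a pooled difference of -0.081. Without the subtraction the differences were -0.26, -0.52, -0.53, -0.55 and -0.33 for TGTANATA. For the reversed letters they were -0.38, -0.49, -0.45, -0.57 and -0.26, more negative than for TGTANATA in the shortest and the next-to-longest group. The order of the 2 motifs thus depended on the measure. No spread is given for these differences. Genes are not replicates, and no test was applied.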

How the data were processed

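RNA-seq values per transcript were analysed for 1 siHNRNPA1 library and 1 control library. Per the labels' protocols, RNA was column-purified and made into messenger RNA libraries, and strandedness is not stated. The deposited table gives for each transcript an estimated count (whole numbers, although overlapping transcripts each carry counts), TPM and FPKM, per the file headers. No aligner or quantification program is named: it is not given in the sources used here. Builds GRCm38 and mm10, both mouse, stand in the submitters' processing notes, but the identifiers are human, and 94 of the 98 transcripts have the position of GENCODE release 29 (GRCh38). The table also has 6 further per-sample columns that could be tied to no listed sample, and these were not used.

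FPKM was summed per gene, a pseudocount of 1 FPKM added, and genes with a mean of at least 1 FPKM kept. Past 2-fold was counted as higher or lower. Intervals are exact (95%) for counts and cover counting error only. Those of FPKM are the limits of the summed count scaled to the gene's FPKM, without the division of counts between transcripts. Estimated counts were used as deposited. The 100 nearest genes were found by Euclidean distance of standardised log2 expression, GC content and log2 length of the leading transcript. Computations used Python 3.11.15, pandas 2.3.3, scipy 1.17.1 and scikit-learn 1.9.0, and the fold and subtraction steps were tested on simulated data. No p-value is given, since each condition has 1 library. Named were all 8 genes, their transcripts of at least 1 FPKM, the 4 largest absolute folds of each list and the 5 genes nearest to PUM2, and some results under this rule are not reported here. The genes and lists were chosen with earlier results of these data known. Alternatives were other pseudocounts, TPM, median ratio scaling, summed counts, protein-coding transcripts and other minimums.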

Additional observations from a re-analysis of the deposited data

How the results depend on the processing

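No paired analysis was possible because each condition has 1 library. PUM2 stayed at least 2-fold lower under all 7 alternatives, at -4.68 with a pseudocount of 0.1 FPKM, -1.82 with 5 FPKM, -4.07 in TPM, -4.67 in CPM and -2.01 after subtraction of the nearest genes. PUM2 was chosen for its low level in the same libraries that every alternative uses. Its staying lower is therefore no check on that level. The 5 genes counted as 2-fold lower became 3 with a pseudocount of 5 FPKM and 2 after the subtraction, where CNOT6 turned to 0.040. None was 2-fold higher under any of them. With protein-coding transcripts only CNOT1 stood at 0.44, while in TPM it passed 2-fold (-1.09). Of the other pathway genes, 6 were 2-fold lower with a pseudocount of 5 FPKM (against 18), and 7 were higher after the subtraction (against 4). Without a minimum FPKM 10 transcripts, against 4, differed by 20 points in share. The difference in median fold between genes with and without TGTANATA was -0.82, and -0.94 with at least 2 matches, -0.90 in TPM and -0.081 after the subtraction. The cause of these changes was not tested. The median fold of all genes was -0.13 as deposited, -0.28 in TPM and 0.00053 after median ratio scaling. Higher genes made up 36.2% of those past 2-fold as deposited, 27.4% in TPM, 46.5% after median ratio scaling, 47.0% with a pseudocount of 5 FPKM and 49.3% after the subtraction. Depth limits PUM2 and CNOT6L most, with 73 and 72 counts under siHNRNPA1.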
